A study of Mus musculus with 9 samples.

Results

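The genes described here are 30 enzymes, regulators and carriers of sterol and fatty acid synthesis, chosen by name. All 30 were found by gene symbol among the 41388 genes of the murine RNA-Seq table, and all 30 were abundant enough to be tested. They comprised 18 genes of the sterol branch (7 enzymes of the mevalonate steps and 11 enzymes from squalene to cholesterol), 4 regulators and carriers of sterols, and 8 genes of the fatty acid branch. The question was how these genes differed between Tc17 cells cultured with and without dimethyl fumarate (DMF), an immunomodulatory drug, and with DMF plus the thiol antioxidant glutathione (GSH).

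Tc17 cells are IL-17-producing CD8+ T cells. They were obtained from naive CD62L+CD44- CD8+ T cells of lymph node and spleen of C57BL/6 mice aged 8 to 12 weeks. All cultures were kept for 2 days with plate-bound anti-CD3 (5 µg/ml), soluble anti-CD28 (0.5 µg/ml), IL-2 (50 U/ml), TGF-β (0.5 ng/ml), IL-6 (30 ng/ml) and an antibody against IFN-γ. All cultures held the solvent DMSO at 0.2%, which Ctrl cultures received alone. DMF cultures received 20 µM DMF, and DMF + GSH cultures received 20 µM DMF with 50 µM GSH. Each group had 3 libraries, numbered R1 to R3, of which R1 belonged to batch 1 and R2 and R3 to batch 2. The labels do not say whether the numbers are separate mice or separate cultures, so that the p-values measure only the spread between these libraries.

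Cholesterol synthesis starts from acetyl-CoA, passes through mevalonate and isoprenoid diphosphates to squalene, and ends with a series of oxidations, reductions and demethylations of the sterol ring. Fatty acid synthesis draws on the same acetyl-CoA, which is carboxylated, built into palmitate, and then elongated and desaturated. Both branches are textbook targets of the SREBP transcription factors, which leave the endoplasmic reticulum when sterols are low, and both are known to be raised in T cells that grow after activation.

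The depth was 7671772 to 14511926 reads per library, with the lowest in Ctrl R3. Values are normalized counts, that is, read counts divided by a size factor per library. The summed level of 5 CD8 T cell markers (Cd8a, Cd8b1, Cd3d, Cd3e and Cd3g) was 21456 to 28119 in the 9 libraries, a sum in which single genes moved in opposite directions. With DMF, Cd8a was higher (log2FC 0.31, p adj = 0.0378), whereas Cd3g, Cd3d and Cd3e had log2FC of -0.53, -0.34 and -0.23 and were called lower with the replicate number in the model (p adj = 9.04e-07, 0.000448 and 0.00135). The summed level of Il17a and Il17f was 2888 to 4476 in Ctrl, 753 to 1936 with DMF and 2971 to 4978 with DMF + GSH. Cd4 had at most 4.40, the 4 B cell markers summed to at most 17.6 and the 2 NK cell markers to at most 4.16. The B cell sum was 2.84 to 16.6 in Ctrl, 1.06 to 3.42 with DMF and 2.92 to 17.6 with DMF + GSH. Within each number it was lowest with DMF. The NK cell sum was 0.929 to 4.16 in Ctrl, 0.00 in all DMF libraries and 0.00 to 2.20 with DMF + GSH. The 5 myeloid markers (Lyz2, Csf1r, Itgax, Adgre1 and Cd14) summed to 235 in Ctrl R3 and to 9.42 to 29.0 in the other 8 libraries. The part of these cells in the results was not tested, and counts without Ctrl R3 are given below. In bulk RNA, fewer cells of a type and less RNA per cell cannot be told apart.

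Promoter sequences are shown for genes of both branches that rose or fell with DMF, since they let the regulatory sequence of genes that moved together be compared. They were taken from a set of RefSeq promoter windows (build GRCm38.p6). Sqle and Scd1, which rose, had no entry in this set and are not shown. Hmgcs1 is added because its window holds a sterol regulatory type motif. Each line gives the 150 bases before the annotated start, 5′ to 3′, and capitals mark the letters TCACNCCA and CCAAT read on either strand.
Cyp51, chr5:4104698-4104847, minus strand: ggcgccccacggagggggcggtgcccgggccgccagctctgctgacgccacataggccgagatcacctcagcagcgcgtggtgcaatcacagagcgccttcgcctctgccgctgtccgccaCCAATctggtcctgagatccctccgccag
Lss, chr10:76531455-76531604, plus strand: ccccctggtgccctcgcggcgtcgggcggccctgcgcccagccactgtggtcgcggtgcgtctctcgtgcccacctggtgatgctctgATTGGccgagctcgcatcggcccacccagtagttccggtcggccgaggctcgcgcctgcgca
Msmo1, chr8:64733579-64733728, minus strand: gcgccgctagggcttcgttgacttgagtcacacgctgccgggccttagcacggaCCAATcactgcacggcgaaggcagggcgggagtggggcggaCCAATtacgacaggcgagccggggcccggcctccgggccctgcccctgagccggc
Hsd17b7, chr1:169969206-169969355, minus strand: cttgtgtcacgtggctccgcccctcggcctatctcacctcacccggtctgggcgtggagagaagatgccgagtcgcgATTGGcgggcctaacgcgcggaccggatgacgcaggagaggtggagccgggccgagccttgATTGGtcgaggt
Fasn, chr11:120824548-120824697, minus strand: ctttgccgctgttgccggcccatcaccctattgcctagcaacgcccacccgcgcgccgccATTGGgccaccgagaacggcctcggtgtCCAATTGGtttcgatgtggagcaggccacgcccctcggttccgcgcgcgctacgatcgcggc
Elovl6, chr3:129532236-129532385, plus strand: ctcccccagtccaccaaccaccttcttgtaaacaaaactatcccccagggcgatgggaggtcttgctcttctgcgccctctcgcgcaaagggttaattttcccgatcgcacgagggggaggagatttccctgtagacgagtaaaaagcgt
Fads2, chr19:10101504-10101653, minus strand: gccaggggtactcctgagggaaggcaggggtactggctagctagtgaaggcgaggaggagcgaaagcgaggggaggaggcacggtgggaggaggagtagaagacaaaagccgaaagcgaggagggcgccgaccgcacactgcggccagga
Hmgcs1, chr13:119690201-119690350, plus strand: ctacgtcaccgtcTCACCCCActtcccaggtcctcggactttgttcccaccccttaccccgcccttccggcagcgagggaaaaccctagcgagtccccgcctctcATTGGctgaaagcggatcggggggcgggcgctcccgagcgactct

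Of the 30 genes, 23 had a promoter entry of 250 bases before to 50 bases after a start, with 28 such windows in all. The letters CCAAT, the binding motif of NF-Y, were found on either strand in 20 of the 28 windows (71.4%) and in 37.4% of the 32851 windows of all genes in the same table. By gene, they were present in 5 of the 5 genes with a window that rose with DMF, in 0 of the 2 that fell (Elovl6 and Fads2) and in 14 of the 16 that were not called. The letters TCACNCCA, part of many sterol regulatory elements, were found in 3 windows (10.7%, against 4.36% of all windows), those of Hmgcs1, Msmo1 and Srebf2. In Msmo1 they begin at position -177 from the start, outside the bases printed above. The GC box letters CCGCCC, on either strand, were in 21 windows (75%, against 35.7%). The windows of all genes were not limited to genes abundant enough to be tested here, as the members were, so that these shares compare unlike sets. No share by gene was computed over all genes. None of the 3 motifs contains another, but a TCACNCCA followed by AT would also count as CCAAT. A window without a motif shows only that these letters are not in it, and some genes have several windows.

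In DMF-treated cells, 5 sterol enzymes and 2 fatty acid enzymes were higher than in Ctrl, and 2 fatty acid enzymes were lower. The sterol enzymes Sqle, Lss, Cyp51, Msmo1 and Hsd17b7 were 1.19-fold to 1.29-fold higher. In the fatty acid branch, Fasn was 1.46-fold and Scd1 1.66-fold higher, whereas Elovl6 and Fads2 were 0.796-fold and 0.744-fold of Ctrl. These calls come from limma on log2(normalized count + 1) with the preparation batch in the model and a p adj below 0.05 over 11599 genes. Of all genes tested, 14.6% were called higher and 13.3% lower, so that 7 of 30 higher and 2 of 30 lower have to be read against that background.

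The count of calls depended on single libraries. Without Ctrl R1, 0 members were called higher and 0 lower, without Ctrl R2 1 and 0, and without Ctrl R3 11 and 1. Without DMF R1 there were 0 and 0, without DMF R2 7 and 4, and without DMF R3 1 and 1. The calls over all genes, 3242 with every library, moved as well, to 628, 1162 and 3789 without Ctrl R1, R2 and R3 and to 110, 3641 and 953 without DMF R1, R2 and R3. Leaving out DMF + GSH R1 or R2 left 1 member called lower each, while 2734 and 3069 of all genes were called. Libraries with the same number deviated together from their group means. When the replicate number replaced the batch in the model (the replicate block), 10 members were called higher (background 23.7%) and 4 lower (background 21.4%), and with 1 library left out of that fit it was 8 to 12 higher and 2 to 5 lower. The highest count in that range, 12, came without Ctrl R3, and the lowest count of members called lower, 2, without DMF R1. Over all genes, the block called 5224 with every library and 4102 to 5466 with 1 library left out. Over 20 alternative settings, 9 of them without 1 library, Scd1 was called in 18, Elovl6 in 17, Sqle, Cyp51 and Fasn in 16, Msmo1 in 15, Lss and Hsd17b7 in 13, and Fads2 in 11. The study's stricter threshold (p adj below 0.01 and an absolute log2FC of at least 0.75) was passed by 0 members, against 2.89% of all genes.

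**Figure D1:**
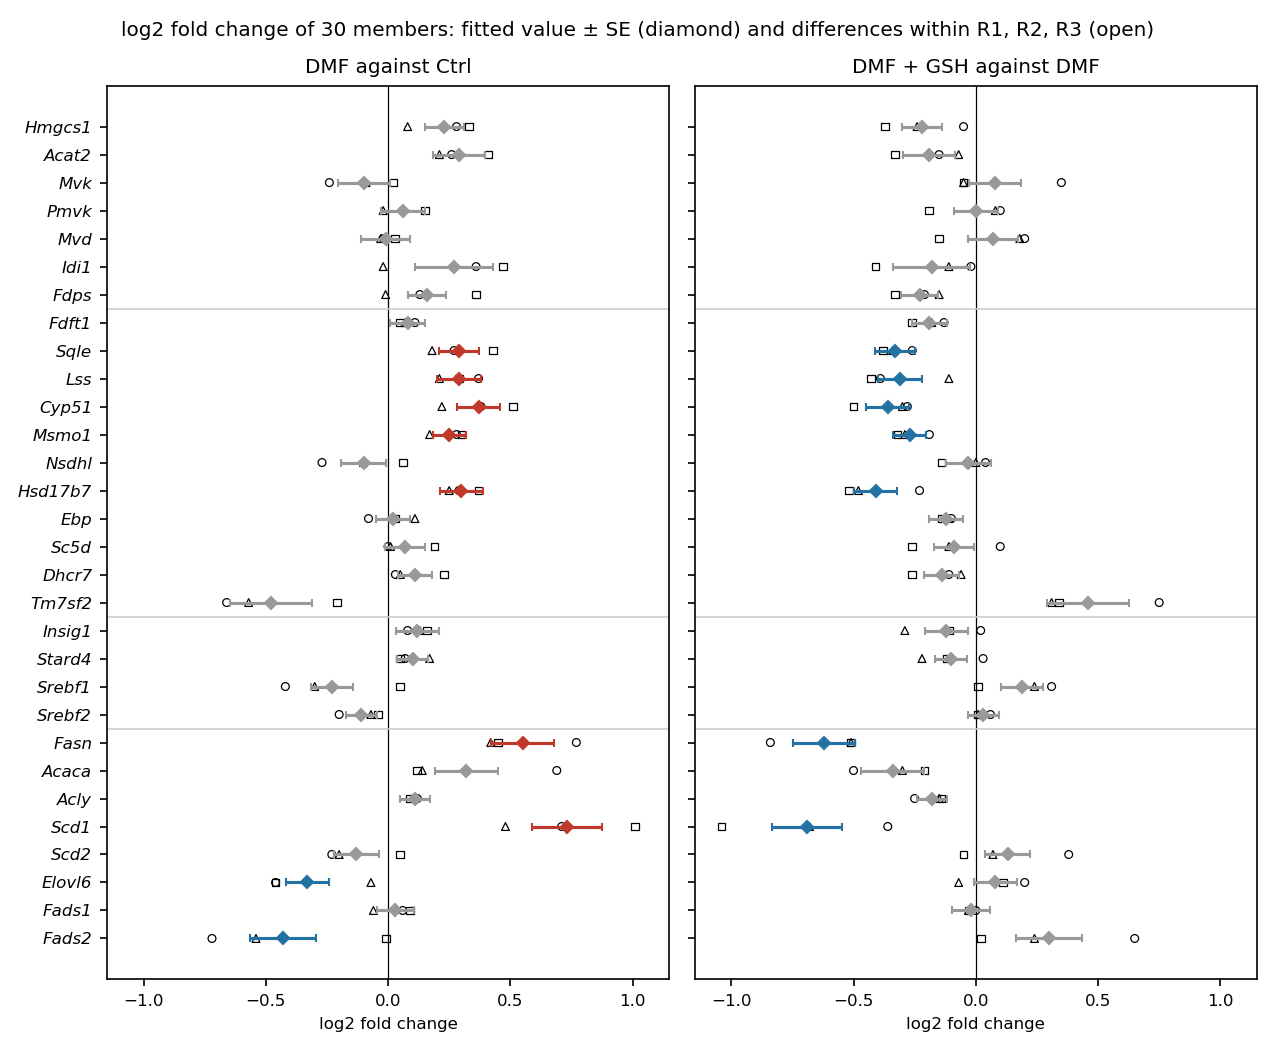
log2 fold change (x axis) of each of the 30 genes (y axis, grouped from top to bottom as mevalonate enzymes, squalene to cholesterol enzymes, regulators and carriers, and fatty acid branch) for DMF against Ctrl (left) and DMF + GSH against DMF (right). Diamonds and bars are the limma estimate ± SE, in red for called higher, blue for called lower and grey for not called, and open symbols are differences within R1 (circle), R2 (square) and R3 (triangle). The 7 red diamonds on the left lie between 0.25 and 0.73.

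Among the 7 mevalonate enzymes, none passed the test with the batch in the model, by limma, edgeR or DESeq2. Of all genes, limma called 14.6% higher and 13.3% lower, and 0 of 7 has to be read against these shares. Before adjustment, 2 of the 7 enzymes had a p below 0.05, Hmgcs1 and Acat2. With the replicate block, these 2 were called higher, against 23.7% of all genes. Hmgcs1 (chr13:119690379-119708260, plus strand) makes HMG-CoA, the precursor of mevalonate. It had 2944, 3156 and 3451 normalized counts in Ctrl R1 to R3, 3567, 3965 and 3658 in DMF, and 3438, 3074 and 3100 in DMF + GSH. All DMF libraries lay above all Ctrl libraries, the smallest difference within a number being that of R3. The log2FC was 0.23 (SE 0.0806, p adj = 0.0572), and p adj was 0.00772 with the replicate block.

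Acat2, the cytosolic thiolase that makes acetoacetyl-CoA, was at 513, 513 and 623 in Ctrl and at 614, 681 and 722 with DMF. Ctrl R3 lay just above DMF R1, but within each number DMF was higher, by 0.26, 0.41 and 0.21 on the log2 scale. Its log2FC was 0.29 (SE 0.107, p adj = 0.0658), with p adj = 0.00284 under the replicate block.

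The other mevalonate enzymes were not called in either fit. The log2FC of Idi1, the isopentenyl diphosphate isomerase, was 0.27 (p adj = 0.221), with differences of 0.36, 0.47 and -0.02 in R1 to R3. That of Fdps, the farnesyl diphosphate synthase, was 0.16 (p adj = 0.146), and the differences were 0.13, 0.36 and -0.01. The kinases Mvk and Pmvk and the decarboxylase Mvd, which turn mevalonate into isopentenyl diphosphate, had values of -0.10, 0.06 and -0.01. In each of these 5 genes the R2 difference was the highest of the 3 numbers, and the R3 difference lay below 0.

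From squalene to cholesterol, 5 of 11 enzymes rose with DMF, where 14.6% of all genes did. Cyp51 (chr5:4081145-4104746, minus strand), the lanosterol demethylase, had 3835, 3953 and 4859 normalized counts in Ctrl, 4989, 5630 and 5645 in DMF, and 4098, 3985 and 4575 in DMF + GSH. Every DMF library exceeded every other library, although Ctrl R3 came close to DMF R1. Its log2FC was 0.37 (SE 0.0882, p adj = 0.0157), the largest value of the sterol branch. The gene shares 166 exonic bases with Akap9 on the opposite strand.

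Sqle (chr15:59315077-59331192, plus strand), squalene epoxidase, an oxygen-dependent and rate-limiting enzyme, was at 1612, 1549 and 1905 in Ctrl, 1941, 2088 and 2159 in DMF and 1624, 1601 and 1707 in DMF + GSH. The DMF libraries were again the 3 highest, with Ctrl R3 close below DMF R1 (log2FC 0.29, SE 0.0817, p adj = 0.0260). Lss (chr10:76531588-76557138, plus strand), which closes the sterol rings to give lanosterol, was at 869, 881 and 946 in Ctrl, 1126, 1074 and 1091 in DMF and 860, 800 and 1009 in DMF + GSH. Its groups did not overlap between Ctrl and DMF (log2FC 0.29, SE 0.0902, p adj = 0.0394). Lss overlaps 381 exonic bases of an antisense gene, and reads of the pair may not have been told apart.

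Msmo1 (chr8:64718139-64733792, minus strand), the methylsterol monooxygenase that acts after Cyp51, was at 898, 869 and 941 in Ctrl, 1094, 1072 and 1061 in DMF, and 959, 858 and 870 in DMF + GSH. The 3 DMF libraries were above the other 6 (log2FC 0.25, SE 0.0680, p adj = 0.0228). Hsd17b7 (chr1:169949535-169969241, minus strand), the ketosteroid reductase of the same demethylation complex, was at 414, 381 and 402 in Ctrl, 505, 491 and 480 in DMF, and 430, 342 and 343 in DMF + GSH. It too was highest in all DMF libraries (log2FC 0.30, SE 0.0865, p adj = 0.0286).

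**Figure D2:**
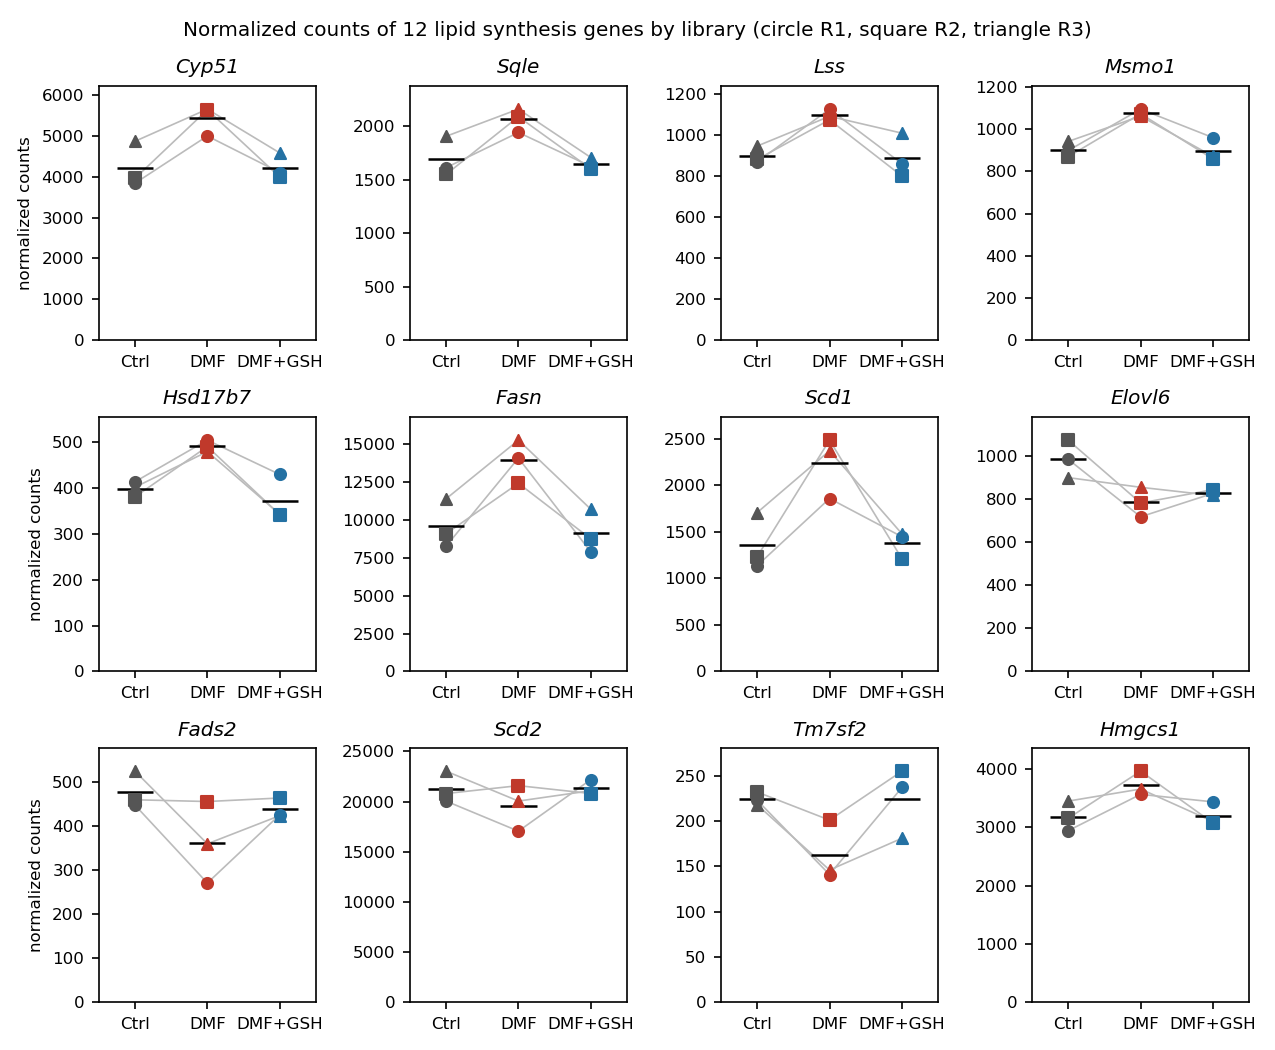
Normalized counts (y axis, from 0) of 12 genes in Ctrl, DMF and DMF + GSH (x axis). Points are libraries (circle R1, square R2, triangle R3), grey lines join libraries of the same number and black bars are means of 3. Cyp51, Sqle, Lss, Msmo1, Hsd17b7, Fasn and Scd1 are highest in the 3 DMF libraries, and Fads2 falls in DMF R1 and R3 but not in R2.

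The remaining enzymes of the sterol ring were not called with the batch in the model. Nsdhl, which works in the same demethylation steps as Msmo1 and Hsd17b7, had 449, 434 and 419 normalized counts in Ctrl and 373, 452 and 391 with DMF, so that the groups overlapped (log2FC -0.10, SE 0.0908, p adj = 0.422). The squalene synthase Fdft1 had a log2FC of 0.08, the isomerase Ebp of 0.02, the desaturase Sc5d of 0.07 and Dhcr7, the reductase that forms cholesterol from its dehydro precursor, of 0.11, with p adj from 0.284 to 0.856. Tm7sf2, a sterol reductase that acts directly after Cyp51, went the other way. It was at 223, 232 and 218 in Ctrl, 141, 201 and 146 in DMF, and 237, 255 and 181 in DMF + GSH, so that all DMF libraries lay below all Ctrl libraries. Its log2FC of -0.48 (SE 0.167) had p adj = 0.0564, and p adj = 0.00287 with the replicate block. Tm7sf2 shares 532 exonic bases with Vps51 on the same strand, and how reads of that stretch were assigned is not stated. Exons of other genes also overlap those of Hmgcs1 (557 bases), Idi1 (323), Fdps (1124), Fdft1 (774), Srebf1 (109, shared with Rai1) and Elovl6 (34), which leaves their counts uncertain to that extent.

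The regulators and carriers showed small differences, and none of the 4 was called by limma, edgeR or DESeq2. Of all genes, limma called 14.6% higher and 13.3% lower, and 0 of 4 has to be read against these shares. With the replicate block, 1 of the 4 was called lower, against 21.4% of all genes. Srebf1, which encodes the SREBP best known for fatty acid genes, was the 1 gene of the 4 with an unadjusted p below 0.05. It was at 4661, 4443 and 4758 in Ctrl, 3488, 4586 and 3855 in DMF, and 4312, 4633 and 4541 in DMF + GSH. DMF R1 and R3 were the lowest of all 9 libraries, whereas DMF R2 lay within the Ctrl range (log2FC -0.23, SE 0.0858, p adj = 0.0752, p adj = 0.0101 with the replicate block). Srebf2, whose SREBP is best known for sterol genes, was at 6674, 7049 and 6850 in Ctrl and at 5800, 6834 and 6516 with DMF (log2FC -0.11, p adj = 0.228). Insig1, which holds the SREBPs in the endoplasmic reticulum and is itself an SREBP target, had a log2FC of 0.12 (p adj = 0.316). The sterol carrier Stard4 had a log2FC of 0.10 (p adj = 0.288), with groups that did not overlap.

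The fatty acid branch held the largest rises among the called members, and both members that fell with the batch in the model. Under the replicate block, Tm7sf2 of the sterol branch was called with a larger fall (-0.48). Fasn (chr11:120805846-120824547, minus strand), which builds palmitate, had 8251, 9081 and 11382 normalized counts in Ctrl, 14075, 12411 and 15258 in DMF and 7873, 8737 and 10694 in DMF + GSH. All DMF libraries were above the other 6, and in each group R3 exceeded R2 (log2FC 0.55, SE 0.127, p adj = 0.0141). Scd1 (chr19:44394455-44407879, minus strand), a desaturase that makes oleate and palmitoleate, was at 1135, 1231 and 1705 in Ctrl, 1857, 2484 and 2370 in DMF and 1446, 1209 and 1477 in DMF + GSH. Ctrl R3 was the highest of the libraries without DMF alone, yet lower than each DMF library (log2FC 0.73, SE 0.143, p adj = 0.00841).

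Scd2 (chr19:44293674-44306864, plus strand), the paralog of Scd1 on the same chromosome, was not called. It had 20043, 20793 and 23024 normalized counts in Ctrl, 17048, 21578 and 20043 in DMF, and 22186, 20794 and 21078 in DMF + GSH, with overlapping groups (log2FC -0.13, SE 0.0914, p adj = 0.320). Scd1 made up 5.36%, 5.59% and 6.89% of the sum of both in Ctrl, 9.82%, 10.3% and 10.6% in DMF, and 6.12%, 5.49% and 6.55% in DMF + GSH. The DMF shares did not overlap those of either other group (exact permutation test, 2-sided, p = 0.1 against each, the smallest p that 3 libraries against 3 allow). In all, 4 pairs were tested in 3 comparisons each, and the Benjamini-Hochberg p over these 12 exact tests was 0.171 or more. Against Ctrl, the DMF shares of Fads2 in Fads2 plus Fads1 and of Fasn in Fasn plus Acly gave exact p = 0.1, and that of Srebf1 in Srebf1 plus Srebf2 exact p = 0.2. For DMF + GSH against DMF, the exact p was 0.3 for the Fads2 share and 0.1 for the other two. The pairs were chosen after the values were seen, and no exact p could fall below 0.1, so that these tests cannot decide whether the shares differ. They also did not pair the libraries by number. Reads that fit both paralogs may have been split or dropped.

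The enzymes upstream of Fasn differed less. Acaca, acetyl-CoA carboxylase, was at 634, 830 and 994 in Ctrl and at 1021, 904 and 1097 with DMF, so that Ctrl R3 lay above DMF R2. The differences within R1, R2 and R3 were 0.69, 0.12 and 0.14, and the log2FC of 0.32 (SE 0.129) had p adj = 0.0921, or p adj = 0.00578 with the replicate block. Acly, which makes cytosolic acetyl-CoA from citrate, had differences of 0.12, 0.09 and 0.11 in R1 to R3. Its groups did not overlap, and its log2FC of 0.11 (SE 0.0613) was not called (p adj = 0.210).

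Elovl6 (chr3:129532355-129638495, plus strand), which elongates palmitate to stearate, was at 985, 1074 and 900 in Ctrl, 718, 782 and 855 in DMF, and 827, 844 and 817 in DMF + GSH. The DMF libraries were below all Ctrl libraries, with differences of -0.46 in R1 and R2 and -0.07 in R3 (log2FC -0.33, SE 0.0866, p adj = 0.0212). Fads2 (chr19:10062765-10101746, minus strand), the first desaturase on the way to polyunsaturated fatty acids, was at 448, 460 and 525 in Ctrl, 271, 456 and 360 in DMF, and 426, 464 and 424 in DMF + GSH. DMF R1 and R3 were the lowest of all libraries, but the R2 libraries differed by -0.01 (log2FC -0.43, SE 0.134, p adj = 0.0404). Fads1, the desaturase that acts after it, had a log2FC of 0.03 (SE 0.0771, p adj = 0.793), with groups that overlapped.

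**Figure D3:**
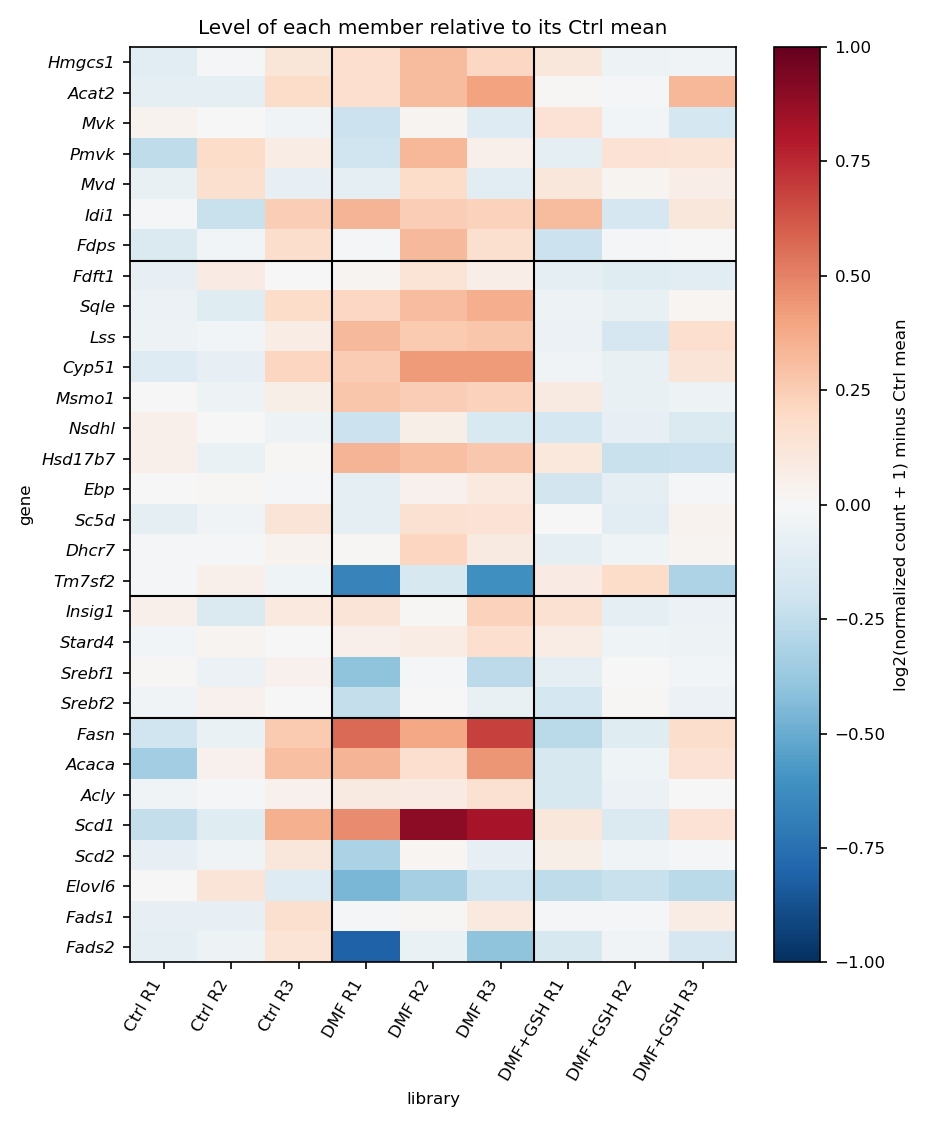
Level of each gene (rows) in each of the 9 libraries (columns) as log2(normalized count + 1) minus the mean of the 3 Ctrl libraries, red above and blue below it. Horizontal lines separate mevalonate enzymes, squalene to cholesterol enzymes, regulators and carriers, and the fatty acid branch. The darkest red fields are Scd1 in DMF R2 and R3, and Ctrl R3 is reddish for many genes.

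The branches were compared by their medians and ranges, without a test of the difference. The median log2FC for DMF against Ctrl was 0.13 over the 18 sterol genes and 0.07 over the 8 fatty acid genes, against 0.01 over all 11599 genes. The sterol genes ran from -0.48 to 0.37 and the fatty acid genes from -0.43 to 0.73. Within R1, R2 and R3, the median was 0.12, 0.26 and 0.06 in the sterol branch and 0.09, 0.09 and 0.02 in the fatty acid branch, R1 being the only number of batch 1. The smallest value in either branch was that of R3. Relative to the Ctrl mean, Ctrl R3 had a median of 0.07 over the sterol and 0.15 over the fatty acid genes, above Ctrl R1 (-0.05 and -0.09) and Ctrl R2 (-0.02 and -0.04). The difference between the branch medians was 0.06, and with 1 library left out it was -0.01 to 0.11. The sterol median was then 0.08 to 0.17 and the fatty acid median 0.03 to 0.11.

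Across single members, 15 of 30 were higher with DMF within all 3 numbers and 4 were lower, against 34.3% and 32% of all genes. The groups did not overlap for 10 members that were higher (Hmgcs1, Sqle, Lss, Cyp51, Msmo1, Hsd17b7, Stard4, Fasn, Acly and Scd1), against 21.6% of all genes. They did not overlap for 2 that were lower (Tm7sf2 and Elovl6), against 19.8%.

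With GSH added to DMF, 7 members were lower than with DMF alone and 0 were higher, against backgrounds of 12.4% and 9.99% of all genes. This comparison uses the same DMF libraries as that of DMF with Ctrl, so that the values of both are given side by side and not as independent results. For Scd1 the log2FC was -0.69 (SE 0.143, p adj = 0.0140) beside 0.73 for DMF against Ctrl, and for Fasn -0.62 (SE 0.127, p adj = 0.0136) beside 0.55. Among the sterol enzymes, it was -0.41 for Hsd17b7 (p adj = 0.0144), -0.36 for Cyp51 (p adj = 0.0206), -0.33 for Sqle (p adj = 0.0224), -0.31 for Lss (p adj = 0.0369) and -0.27 for Msmo1 (p adj = 0.0242), beside 0.30, 0.37, 0.29, 0.29 and 0.25.

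Neither of the 2 genes that fell with DMF was called with the batch in the model when GSH was added. Fads2 was 0.30 higher in DMF + GSH than in DMF (SE 0.134, p adj = 0.128, p adj = 0.0341 with the replicate block), with differences of 0.65, 0.02 and 0.24 in R1 to R3. Elovl6 had a log2FC of 0.08 (SE 0.0866, p adj = 0.511), its differences were 0.20, 0.11 and -0.07, and all 3 DMF + GSH libraries (817 to 844) lay below all 3 Ctrl libraries (900 to 1074). Tm7sf2 had a log2FC of 0.46 (SE 0.167, p adj = 0.0713, p adj = 0.00427 with the replicate block) and was higher with GSH in every number. Tm7sf2 and Fads2 were the 2 members with an unadjusted p below 0.05 among those that were higher, and edgeR and DESeq2 called 0 members higher.

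With the replicate block, 13 members were called lower (background 21.6%) and 3 higher (background 19.9%) in DMF + GSH than in DMF. Those called lower in the block only were Hmgcs1, Acat2, Fdps, Fdft1, Acaca and Acly, with log2FC from -0.34 (Acaca) to -0.18 (Acly), and those called higher were Tm7sf2, Srebf1 and Fads2. Without DMF R1, DMF R3, DMF + GSH R1 or DMF + GSH R2, the fit with the batch called 0 members in this comparison, and 15, 107, 10 and 143 of all genes in place of 2592. Without DMF R2 it called 8 lower and 3 higher, without DMF + GSH R3 7 and 1, and without Ctrl R3 9 and 0. The calls over all genes rose as well in these fits, to 3097, 3094 and 3004. The groups did not overlap for 11 members that were lower (background 20.5%) and for 0 that were higher (background 17.8%). The study's threshold was passed by 0 members (background 0.543%). The median log2FC was -0.18 over the sterol and -0.10 over the fatty acid genes. Within R1 to R3 the sterol median was -0.10, -0.29 and -0.11, and the fatty acid median -0.13, -0.09 and -0.11. The sterol fall was thus the larger one in R2, the smaller one in R1 and equal after rounding in R3.

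DMF + GSH was also compared directly with Ctrl. No member was called, and no gene at all (0 of 11599, background 0%), by limma, edgeR or DESeq2. The replicate block called 4 genes, none of them a member. Before adjustment, 222 genes by limma, 213 by edgeR and 100 by DESeq2 were below 0.05, and 599 with the replicate block, with 1 member in each, Elovl6 (log2FC -0.25, limma p adj = 1). The members' log2FC ran from -0.25 to 0.11, with a median of -0.02 in the sterol and -0.04 in the fatty acid branch. With the batch in the model, the 95% interval was -0.28 to 0.36 for Scd1 and -0.35 to 0.21 for Fasn. Differences within these bounds could not be told from 0 in that fit. The SE was 0.143 for Scd1 and 0.127 for Fasn there, and 0.0964 and 0.0640 with the replicate block. The groups did not overlap for Fdft1, Nsdhl, Ebp and Elovl6, which were lower with DMF + GSH (4 of 30, against 2.39% of all genes).

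**Figure D4:**
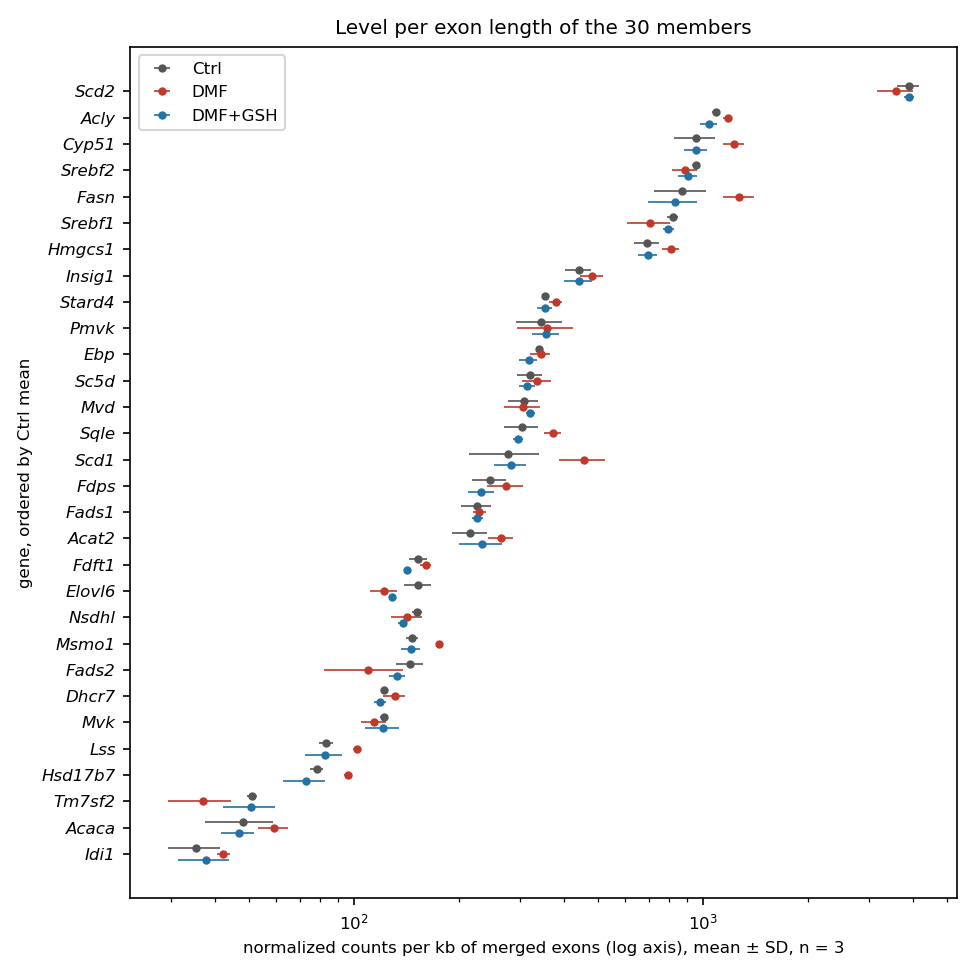
Normalized counts per kb of merged exons (x axis, log scale) of the 30 genes (y axis, ordered by their Ctrl mean), as mean ± SD of 3 libraries in Ctrl (grey), DMF (red) and DMF + GSH (blue). Scd2 is highest at 3896 in Ctrl, Idi1 lowest at 35.4, and Scd1 and Fasn shift to the right with DMF.

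Levels between genes were compared as normalized counts per kb of merged exon length. This length joins the exons of all annotated transcripts of a gene. It can exceed that of the mRNA present in these cells, which would lower the value, and the order of genes holds for this measure only. In Ctrl, Scd2 was the most abundant member with 3896 ± 284 (SD, n = 3), followed by Acly with 1094 ± 30.6, Cyp51 with 955 ± 127, Srebf2 with 955 ± 26.1 and Fasn with 874 ± 148. The SD ranges of Acly and Cyp51 overlapped, as did those of Cyp51, Srebf2 and Fasn, so that their order is not set by these data. Scd1 had 277 ± 62.4 in Ctrl, and 457 ± 68.3 with DMF, where Scd2 still had 3579 ± 422. By this measure, the lowest members were Tm7sf2 (51.0 ± 1.68), Acaca (48.0 ± 10.6) and Idi1 (35.4 ± 5.98), whose SDs overlapped in part. Their merged exon lengths were 4403, 17074 and 3505 bases. With DMF, Fasn reached 1271 ± 131 and Cyp51 1228 ± 84.8, beside 1178 ± 31.4 for Acly, and these 3 did not differ beyond their SDs.

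Further genes of the pathway were counted from lists. Of 8 genes of the SREBP machinery, 1 rose and 1 fell with DMF, close to the 14.6% and 13.3% of all genes. Scap, the escort of the SREBPs, was at 1481 to 1688 in Ctrl and 1852 to 1880 with DMF (log2FC 0.23, SE 0.0694, p adj = 0.0328), and Fbxw7, a ubiquitin ligase subunit that marks nuclear SREBPs for breakdown, was at 439 to 498 and 353 to 437 (log2FC -0.25, SE 0.0786, p adj = 0.0423). The median of this list was -0.03. With the replicate block, Insig2 was called lower as well (log2FC -0.27, p adj = 0.0347), which made 2 of 8 lower against 21.4% of all genes. With GSH added, Scap had a log2FC of -0.24 relative to DMF (p adj = 0.0379).

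Of 10 genes of the isoprenoid side branches, which lead to ubiquinone, dolichol and prenylated proteins, 4 rose with DMF (Pdss1, Pdss2, Nus1 and Coq2, against 14.6% of all genes), and the list had a median of 0.19. With the replicate block, 5 of 10 were called higher (background 23.7%), Fnta being added. Pdss1, a subunit of the enzyme that makes the ubiquinone side chain, was at 169 to 236 in Ctrl and 259 to 323 with DMF (log2FC 0.58, SE 0.144, p adj = 0.0173). Its partner subunit Pdss2 had a log2FC of 0.40 (p adj = 0.0345), as had Nus1, a subunit of the dolichol-forming transferase (p adj = 0.0299).

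Of 20 other genes of fatty acid synthesis, elongation and activation, 18 were tested, 4 rose (Slc25a1, Hsd17b12, Hacd2 and Acsl1) and 3 fell (Acss2, Acacb and Elovl7), with a median of 0.19. The shares over all genes were 14.6% and 13.3%. With the replicate block, 9 were called higher and 3 lower, against 23.7% and 21.4%. Me1 and Mlxipl were too low to be tested. Elovl7, another elongase, was at 102 to 111 in Ctrl, 50.3 to 61.6 with DMF and 81.7 to 102 with DMF + GSH. Its log2FC of -0.92 (SE 0.148, p adj = 0.00589) passed the study's threshold. Acacb, the mitochondrial carboxylase, was at 21.3 to 37.4 in Ctrl and 11.1 to 15.9 with DMF (log2FC -0.90, SE 0.242, p adj = 0.0233). Acss2, which makes acetyl-CoA from acetate, was at 193 to 255 and 127 to 177 (log2FC -0.68, SE 0.171, p adj = 0.0182).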

How the data were processed

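RNA-Seq of 9 murine Tc17 libraries was used (Ctrl, DMF and DMF + GSH, 3 each). The authors aligned single reads of 50 bp to GRCm38 (STAR 2.4.0b per the submitters' processing notes), counted them per gene and divided the counts by a size factor per library. The values they deposited are therefore a normalized signal and not raw counts. Strand use in counting: not given in the sources used here. Columns of the same table hold the authors' fold changes and p-values, which were not used. All values above 0 (100%) were whole multiples of a library's smallest step (tolerance 0.01 reads), so that reads could be recovered, and the depth was 7671772 to 14511926 reads.

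Groups were compared with limma-trend (2-sided, R 4.3.3, limma 3.58.1), applied to log2(normalized count + 1), so that fold changes of low genes are understated. Group and batch were in the model, genes had a mean of at least 10 (11599 of 41388), and p adj was Benjamini-Hochberg over all of them, called below 0.05. The script was tested on simulated data. On the recovered reads, edgeR 4.0.16 (quasi-likelihood) called 3277 genes for DMF against Ctrl and 2649 for DMF + GSH against DMF, DESeq2 1.42.0 called 3083 and 2590, and limma 3242 and 2592. After removal of group means, libraries of different groups correlated with 0.4466 to 0.5777 where they shared a number (9 pairs) and with -0.4705 to -0.06212 otherwise (18 pairs). The numbers of the labels thus pair the libraries, and values from the replicate block are printed where they change a call of a member or a count of a list for DMF against Ctrl.

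The members and lists were chosen with earlier results of these data known. All 30 members are named, and of other lists at most the 3 called genes with the largest absolute log2FC for DMF against Ctrl are described. Hacd2, Hacd3 and Adgre1 carry older symbols in the table and were matched by identifier. Positions and exon lengths are from GENCODE vM21 (GRCm38), and promoters from RefSeq (GRCm38.p6). Alternatives were pseudocounts of 0.5 and 4, no minimum or a minimum of 50, TMM or quantile scaling, the replicate block, a model with no batch, a fit of only the groups compared, edgeR, DESeq2 and each library left out. Leaving out each library under the replicate block was added after the data were seen. Results for some single genes are not reported here. Tables were made with pandas 2.3.3 and NumPy 2.4.6 (Python 3.11.15), and figures with Matplotlib 3.10.9.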

Additional observations from a re-analysis of the deposited data

How the results depend on the processing

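For DMF against Ctrl, 7 members were called higher and 2 lower. Without a minimum mean, 4 were called higher. Without the batch term, or with only the groups compared, 1 was called lower. With the replicate block, the counts were 10 higher and 4 lower for DMF against Ctrl, and 3 higher and 13 lower for DMF + GSH against DMF. Quantile normalization gave a fatty acid median of -0.07 for DMF + GSH against DMF, in place of -0.10. The block changed no call of a member other than those given in the text. With 1 library left out, the number called higher with DMF was 0 to 11 and lower 0 to 4, and for DMF + GSH against DMF it was 0 to 3 higher and 0 to 9 lower. Under the replicate block with 1 library left out, these were 8 to 12 and 2 to 5, and 1 to 4 and 9 to 13. Over all genes, the calls were then 110 to 3789 and 10 to 3097 with the batch in the model. Under the replicate block they were 4102 to 5466 and 3581 to 4873. The sterol median was 0.08 to 0.17 for DMF against Ctrl, -0.21 to -0.11 for DMF + GSH against DMF and -0.07 to 0.01 for DMF + GSH against Ctrl (replicate block 0.07 to 0.18, -0.21 to -0.11 and -0.07 to 0.02). The fatty acid median was 0.03 to 0.11, -0.12 to -0.08 and -0.08 to 0.04 (replicate block 0.05 to 0.09, -0.11 to -0.09 and -0.06 to 0.01). The sterol minus fatty acid median was -0.01 to 0.11, -0.12 to -0.03 and -0.03 to 0.03 (replicate block 0.01 to 0.10, -0.12 to -0.02 and -0.01 to 0.07). Removing a library from a group leaves that group with 2, and where R1 is removed, with none of batch 1. Of the single-gene calls under all alternatives, 2399 were the same, 132 were gained, 79 were lost and none turned its direction. The shallowest library, Ctrl R3, limits the precision of low genes, and 3 libraries a group limit all calls.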

Other observations

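Of 11 genes of mitochondrial and peroxisomal oxidation, 3 fell (Cpt1a, Hadha and Etfdh), 8 were not called and all 11 had a log2FC below 0, with a median of -0.14 against 0.01 over all genes. Of all genes, 13.3% fell, and with the replicate block 4 of the list were lower against 21.4%, Slc25a20 being added. Cpt1a, the carnitine transferase that admits long-chain fatty acids to mitochondria, was at 769 to 1074 normalized counts in Ctrl, 529 to 633 with DMF and 851 to 1050 with DMF + GSH. Its log2FC was -0.72 for DMF against Ctrl (limma, SE 0.134, p adj = 0.00722) and 0.78 for DMF + GSH against DMF (p adj = 0.0107), comparisons that share the DMF libraries. Etfdh, which passes electrons from oxidation to ubiquinone, had a log2FC of -0.39 (p adj = 0.0223), and Hadha, a subunit of the trifunctional protein, of -0.25 (p adj = 0.0146).

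Of 12 genes of sterol storage, efflux and trafficking, 1 fell with DMF and 11 were not called, with a median of -0.22, where 13.3% of all genes fell. Npc2, which hands cholesterol out of lysosomes, was at 2271 to 3360 in Ctrl and 1705 to 2280 with DMF (log2FC -0.57, SE 0.176, p adj = 0.0383), and with the replicate block 6 genes of the list were lower, against 21.4% of all genes. Of 12 proliferation genes, 2 fell and 1 rose with DMF, where 13.3% of all genes fell and 14.6% rose. Mki67 (log2FC -0.49, p adj = 0.00650) and Top2a (-0.44, p adj = 0.00933) fell and Pcna rose (0.23, p adj = 0.0405). With the replicate block, 5 of the 12 were higher and 3 lower, against 23.7% and 21.4% of all genes. The part of proliferation in the values of the lipid genes was not tested.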
